A study of Saccharomyces cerevisiae with 24 samples.

Results

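The genes described here are the duplicated genes of the cytosolic ribosome in budding yeast: those whose standard symbol is RPL or RPS, a number and the letter A or B, with both copies on the array. Of 114 such symbols in the gene table, 113 were found on the array through their systematic names. RPL20A was not found, so RPL20B was left out with it. The remaining 112 genes form 56 pairs, 32 of the large subunit (64 genes) and 24 of the small subunit (48 genes), among 6209 genes tested. Each of the 112 genes had 1 probe, printed as 9 to 10 spots, and was above background on all 24 arrays, so none was lost to the filter on dim probes.

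RNA was hybridised to 24 one-colour arrays in 8 groups of 3, from W303 yeast of mating type a grown at 30 °C in selective synthetic complete medium. Every strain lacked the chromosomal IRE1 gene, and either ire1ΔLD, a form without the lumenal domain (ΔLD cells), or intact Ire1 (IRE1 cells) was expressed in its place. Ire1 is the stress sensor in the membrane of the endoplasmic reticulum (ER). In each of these strains the groups were cells given 2 mM DTT for 1 h, Δopi3 cells given 1 mM choline overnight, Δopi3 cells without choline, and untreated cells. DTT reduces disulfide bonds and disturbs protein folding in the ER. Opi3 is a methyltransferase of phosphatidylcholine synthesis, and choline feeds the other route to the same lipid. The labels do not say whether the 3 arrays of a group came from separate cultures, so p-values measure the spread between these arrays. Each of the 3 slides held 1 array of every group, and the slide is also the replicate number.

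A yeast ribosome is built from a large and a small subunit, and most of its proteins are encoded by a pair of near-identical genes left by an old duplication of the genome. Growing yeast transcribes these genes at very high rates, with the proteins Rap1, Fhl1, Ifh1 and Sfp1 at their promoters, and lowers their transcripts together when growth slows or a stress sets in. The copies of a pair often encode the same or almost the same protein but have their own promoters, introns and untranslated regions.

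Levels are given as the log2 of the array's processed signal minus the array's 75th percentile, so that 0 is the 75th percentile. A gene was called higher or lower at a Benjamini-Hochberg adjusted p under 0.05 in a limma model fitted to all 24 arrays. Shares of all genes called are from this fit. None is given for other scalings, other models or fits with arrays left out. The level of one probe was not set against that of another. Instead, the copies of a pair were compared by the change of copy A minus the change of copy B. A transcript of one copy may also bind the probe of the other. The probe sequences were not used here, and how much such binding narrowed the differences between copies was not tested. In samples of whole cultures, fewer cells with a transcript and less transcript per cell cannot be told apart.

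Not all arrays labelled Δopi3 lacked OPI3 signal. Of these 12 arrays, 5 had OPI3 signal above background. It stood at 23.3% and 1.53% of the untreated level on the ΔLD Δopi3 arrays of slides 3 and 2. On the IRE1 Δopi3 arrays of the same slides it stood at 31.0% and 0.752%, and on the choline-treated IRE1 Δopi3 array of slide 3 at 11.4%. The main counts and medians from Δopi3 arrays, and some of the single values, are therefore also given without these 5 arrays. The 75th percentile used for scaling lay between 11761 and 14247 intensity units on DTT arrays, against 6951 to 10734 on untreated arrays, and between 6951 and 15890 over all 24 arrays.

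With DTT, the duplicated ribosomal protein genes fell almost as one block. In ΔLD cells 111 of 112 were called lower and 1 higher, where 28.3% of all genes tested were called lower and 38.1% higher. In IRE1 cells 111 were again called lower and 1 higher, against 30.1% of all genes called lower and 39.4% higher. The median change was -1.06 in ΔLD cells and -1.16 in IRE1 cells, while the median over all genes tested was 0.08 and 0.07. At the median, the DTT level was 48.0% of the untreated level in ΔLD cells and 44.7% in IRE1 cells. A fall of at least 2-fold was called for 75 genes in ΔLD cells and for 104 in IRE1 cells. The shares of all genes given above have no fold limit, so they are no background for these counts.

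The medians of the subunits lay close together, with no test of the difference. In ΔLD cells the median change was -1.06 over the 64 large-subunit genes and -1.08 over the 48 small-subunit genes. In IRE1 cells these medians were -1.15 and -1.17. The quartiles of the change over the 112 genes were -1.15 and -0.98 in ΔLD cells and -1.25 and -1.10 in IRE1 cells. Apart from RPL15B, the smallest falls were of RPS9A at -0.54 in ΔLD cells and -0.55 in IRE1 cells. RPS9A encodes a small-subunit protein that binds early in assembly.

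**Figure D1:**
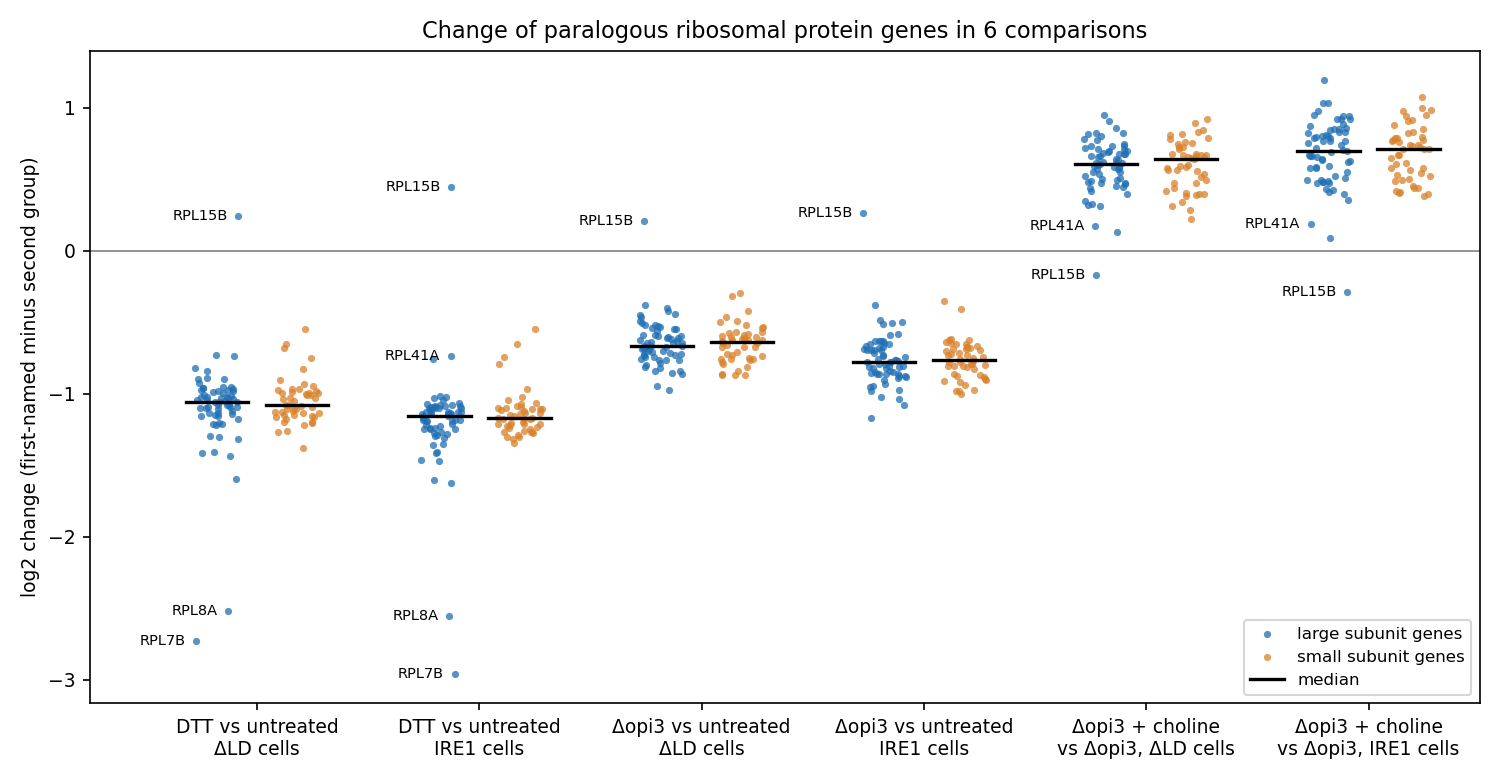
Log2 change (vertical axis) of each of the 112 genes in 6 comparisons, with large-subunit genes in blue, small-subunit genes in orange and a black bar at each median. The genes lie in a narrow band below 0 with DTT and in Δopi3 cells and above 0 with choline, except RPL15B on the other side of 0 in all 6 comparisons, RPL7B and RPL8A far below the band with DTT, and the RPL41 genes near 0 with choline. With scaling to spiked-in E1A controls the DTT band of IRE1 cells moves to a median of -0.27 and 7 of 112 genes lie above 0.

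How far the block fell depended on what the signal was measured against. With arrays scaled to the spiked-in E1A controls, the median over all genes itself rose with DTT, by 0.43 in ΔLD cells and 0.96 in IRE1 cells. The ribosomal protein genes then changed by a median of -0.70 in ΔLD cells and -0.27 in IRE1 cells. In these strains 99 and 8 of them were called lower, and the shares of all genes given before are not on that scale. In IRE1 cells 7 of 112 then lay above 0, so 6 genes other than RPL15B changed sign. Relative to the median of all genes, the difference was -1.14 in ΔLD cells and -1.24 in IRE1 cells. E1A scaling shifts all genes of an array by the same amount, so it cannot change this difference. With quantile normalization the medians were -0.63 in ΔLD cells and -0.66 in IRE1 cells. The difference from the median of all genes was then -0.61 in ΔLD cells and -0.64 in IRE1 cells.

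The array medians showed the same separation on every slide. The median level of the 112 genes was 2.94, 2.75 and 2.70 on the DTT arrays of ΔLD cells (slides 1, 2 and 3), against 3.86, 3.89 and 3.81 on the untreated arrays. It was 2.94, 2.70 and 2.70 on the DTT arrays of IRE1 cells, against 3.95, 3.89 and 3.85 on the untreated arrays. Every DTT array lay below every untreated array of its strain.

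**Figure D2:**
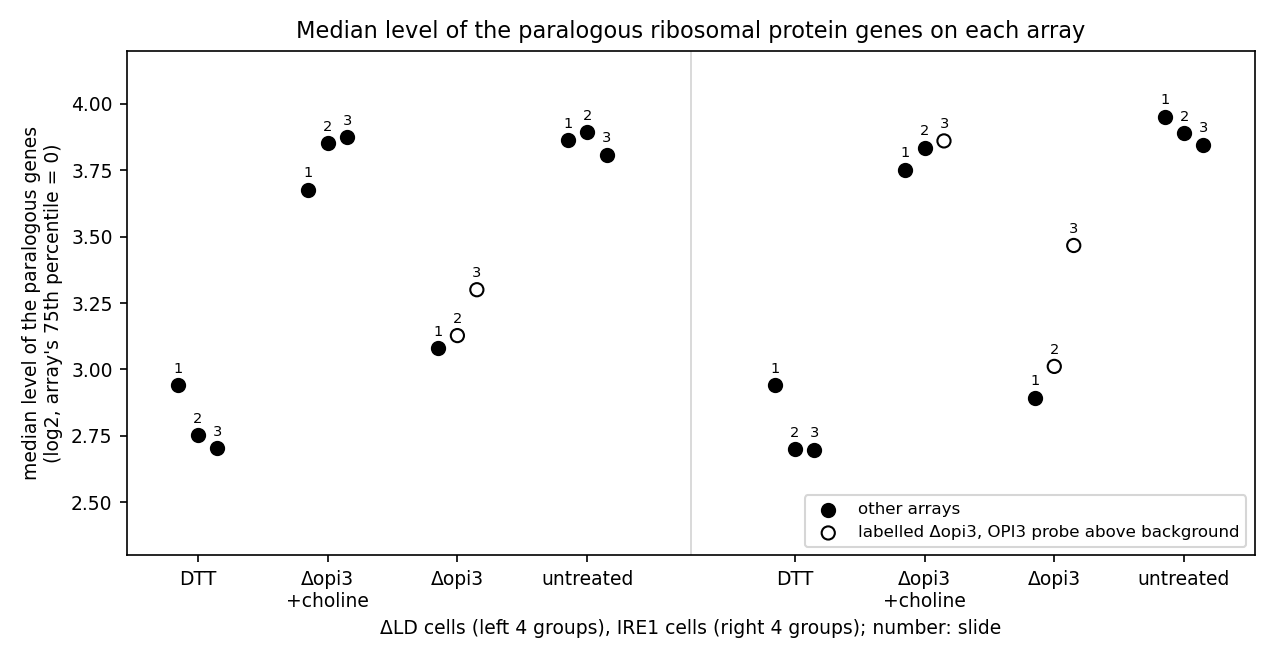
Median level of the 112 genes on each array (vertical axis, log2, 0 at the array's 75th percentile), with ΔLD cells in the left 4 groups, IRE1 cells in the right 4 groups and the slide number above each point. Open circles mark the 5 arrays labelled Δopi3 whose OPI3 probe was above background; the highest of the Δopi3 arrays without choline, at 3.47, is the one with the most OPI3 signal.

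RPL15B stood apart from the other 111 genes in moving the other way. Rpl15 is a protein of the large subunit, and RPL15A and RPL15B are its copies. RPL15B levels were -0.02, -0.30 and -0.13 on the DTT arrays of ΔLD cells, against -0.39, -0.42 and -0.37 on the untreated arrays. In IRE1 cells they were 0.04, 0.07 and 0.04 with DTT, against -0.40, -0.38 and -0.41 untreated. All DTT arrays lay above all untreated arrays of the same strain, by a small margin in ΔLD cells.

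RPL15B was called higher with DTT in ΔLD cells (0.24, SE 0.08, adjusted p = 0.0159 by limma) and in IRE1 cells (0.45, SE 0.08, adjusted p = 9.76e-05 by limma). In ΔLD cells the call was lost without replicate 3, without DTT replicate 1 or without untreated replicate 2, with changes of 0.17 to 0.24. RPL15A did the opposite: it was at 3.27, 2.99 and 3.04 with DTT in ΔLD cells, against 4.37, 4.36 and 4.24 untreated. In IRE1 cells it was at 3.27, 3.26 and 3.18 with DTT, against 4.44, 4.43 and 4.41 untreated. RPL15A was thus called lower in both strains, by a log2 change of -1.22 in ΔLD cells and -1.19 in IRE1 cells.

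The largest falls with DTT were of RPL7B and RPL8A, each far beyond its partner. RPL7B encodes a copy of Rpl7, a large-subunit protein, and the gene table lists a small nucleolar RNA gene within each copy, SNR39 in RPL7A and SNR59 in RPL7B. RPL7B levels were -4.09, -3.63 and -3.71 with DTT in ΔLD cells, against -1.10, -1.04 and -1.10 untreated. In IRE1 cells they were -3.83, -4.21 and -3.80 with DTT, against -0.87, -0.99 and -1.11 untreated. Every DTT array lay far below every untreated array of the same strain.

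RPL7B changed by -2.73 in ΔLD cells (SE 0.14, adjusted p = 3.81e-11 by limma) and by -2.95 in IRE1 cells (SE 0.14, adjusted p = 4.79e-12 by limma). Its partner RPL7A changed by -1.20 in ΔLD cells and -1.35 in IRE1 cells. RPL7A was at 1.38, 1.44 and 1.14 with DTT in ΔLD cells, against 2.39, 2.72 and 2.46 untreated. In IRE1 cells it was at 1.43, 1.01 and 1.09 with DTT, against 2.59, 2.74 and 2.24 untreated.

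Rpl8 is a large-subunit protein that takes part in early assembly of that subunit. RPL8A was at 0.81, 0.50 and 0.60 with DTT in ΔLD cells, against 3.11, 3.21 and 3.12 untreated. In IRE1 cells it was at 0.81, 0.20 and 0.50 with DTT, against 3.12, 3.12 and 2.94 untreated. The groups were far apart in both strains. RPL8A changed by -2.52 in ΔLD cells (SE 0.15, adjusted p = 1.78e-10 by limma) and -2.55 in IRE1 cells (SE 0.15, adjusted p = 6.31e-11 by limma). RPL8B changed by -1.30 in ΔLD cells and -1.36 in IRE1 cells. RPL22B, a copy of the gene for the large-subunit protein Rpl22, had the next largest fall, at -1.59 in ΔLD cells and -1.63 in IRE1 cells.

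**Figure D3:**
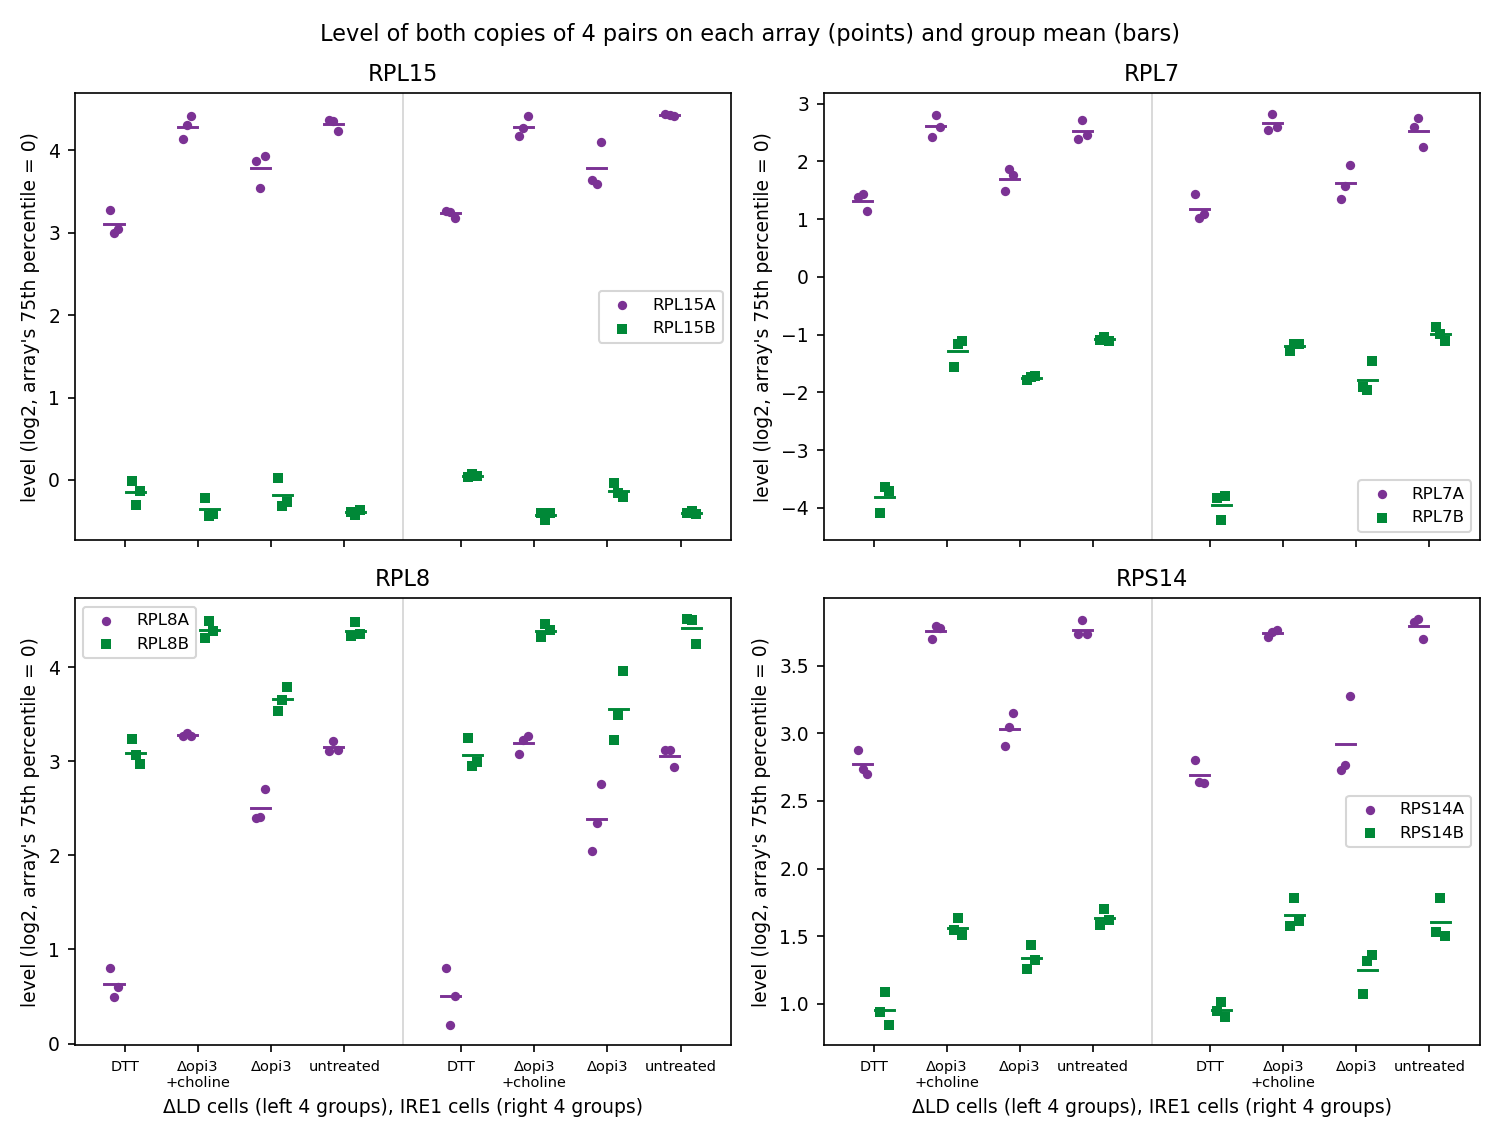
Level of both copies of RPL15, RPL7, RPL8 and RPS14 on each array (vertical axis, log2, 0 at the array's 75th percentile; copy A as purple circles, copy B as green squares; bars are group means, n = 3), with ΔLD cells in the left 4 groups and IRE1 cells in the right 4. RPL15A falls while RPL15B rises in the DTT and Δopi3 groups, and RPL7B and RPL8A fall furthest with DTT; the vertical gap between copies compares different probes and has no meaning.

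Setting the copies of each pair against each other, 13 of 56 pairs (23.2%) differed in their DTT change in ΔLD cells and 17 of 56 (30.4%) in IRE1 cells. Copy A changed in the more positive direction in 9 of the 13 and in 12 of the 17. Most differences were small: the median size was 0.07 in ΔLD cells and 0.08 in IRE1 cells, and 3 pairs in each strain differed by more than 1. These were RPL15, RPL7 and RPL8. With quantile normalization the RPL22 difference was 0.98 in ΔLD cells and 1.16 in IRE1 cells, larger in size than that of RPL15. The copies had opposite signs in 1 pair, RPL15, in each strain. With quantile normalization 23 pairs differed in ΔLD cells, and under E1A scaling 3 were called in ΔLD cells and 5 in IRE1 cells. Here and in the pair counts below, E1A scaling leaves the copy differences and their spread between arrays unchanged. Only the variance that limma shares over all rows and the adjustment of p-values then differ. Without slide 2 the counts were 7 in ΔLD cells and 8 in IRE1 cells. In IRE1 cells they were also 10 without slide 1 and 8 without untreated replicate 1.

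For RPL15 the change of copy A minus that of copy B was -1.46 in ΔLD cells (95% interval -1.75 to -1.17, adjusted p = 5.35e-08 by limma) and -1.64 in IRE1 cells (-1.93 to -1.35, adjusted p = 7.30e-09 by limma). For RPL7 it was 1.53 in ΔLD cells (1.23 to 1.83, adjusted p = 5.13e-08 by limma) and 1.61 in IRE1 cells (1.30 to 1.91, adjusted p = 1.66e-08 by limma). For RPL8 it was -1.22 in ΔLD cells (-1.37 to -1.06, adjusted p = 2.23e-10 by limma) and -1.20 in IRE1 cells (-1.35 to -1.04, adjusted p = 1.18e-10 by limma). Each held its direction on all 3 slides and was called under every alternative run. The RPL15 difference with quantile normalization was -0.91 in ΔLD cells and -0.995 in IRE1 cells. The slide values ran from -1.49 to -1.42 in ΔLD cells and from -1.68 to -1.62 in IRE1 cells for RPL15, and from 1.29 to 1.99 in ΔLD cells and from 1.49 to 1.80 in IRE1 cells for RPL7. For RPL8 they ran from -1.30 to -1.13 in ΔLD cells and from -1.37 to -1.05 in IRE1 cells.

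RPS9 came next in both strains. Its change of copy A minus that of copy B was 0.43 in ΔLD cells and 0.57 in IRE1 cells, RPS9A having fallen less. With quantile normalization that difference was -0.08 in ΔLD cells and 0.01 in IRE1 cells, neither called. In RPS14, whose protein lies on the platform of the small subunit and is known to repress splicing of RPS14B, copy A fell further, with a difference of -0.32 in ΔLD cells and -0.45 in IRE1 cells. With quantile normalization the RPS14 difference was 0.009 in ΔLD cells and -0.10 in IRE1 cells, neither called.

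At the other end, the copies of RPS24, RPL42 and RPL1 kept closest together over the DTT effects. Rps24 is a small-subunit protein, and Rpl42 and Rpl1 are large-subunit proteins, the last at the stalk near the tRNA exit site. The 95% interval of the copy difference in RPS24 was -0.08 to 0.11 in ΔLD cells and -0.10 to 0.08 in IRE1 cells. In all, the interval lay within 0.25 of 0 on both sides for 34 pairs in ΔLD cells and 31 in IRE1 cells.

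**Figure D4:**
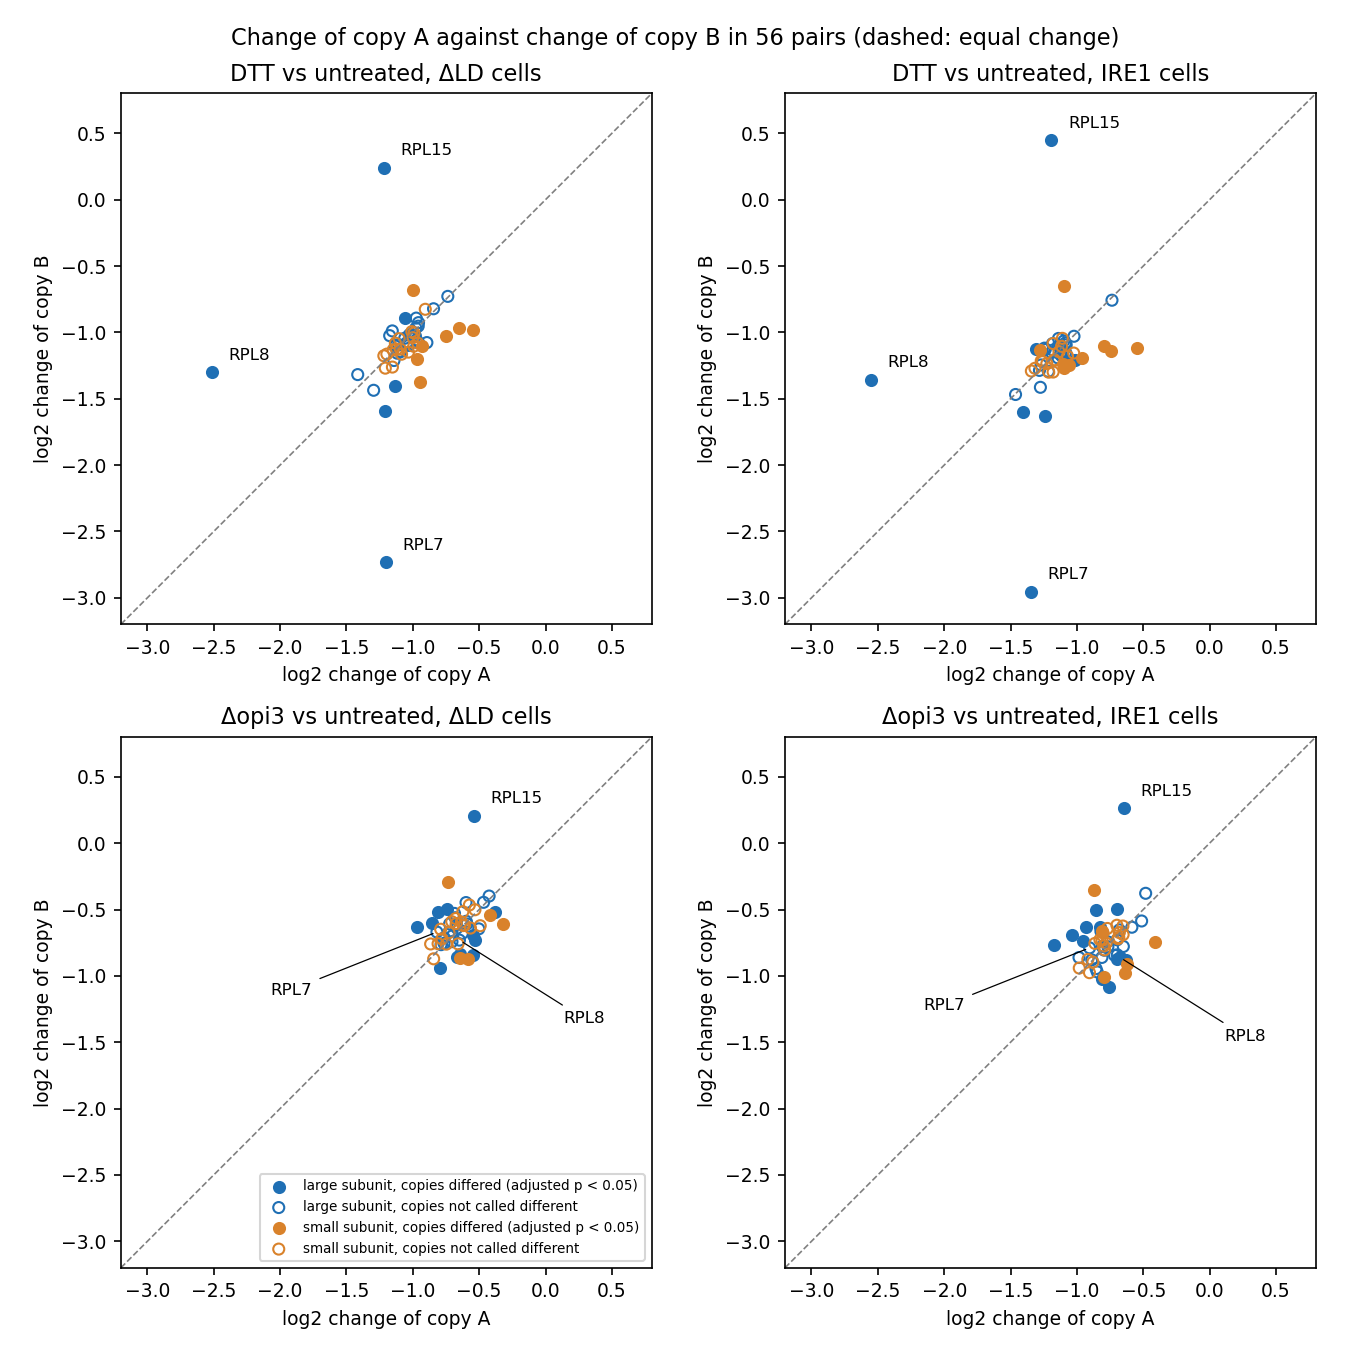
Log2 change of copy A (horizontal axis) against that of copy B (vertical axis) for the 56 pairs, with DTT in the upper panels, Δopi3 in the lower panels, ΔLD cells on the left and IRE1 cells on the right; filled points are pairs whose copies differed (adjusted p under 0.05) and the dashed line marks equal change. RPL15, RPL7 and RPL8 lie far from the line with DTT, while with Δopi3 RPL15 alone is far from it.

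In Δopi3 cells the duplicated genes were lower than in untreated cells. In ΔLD cells 110 of 112 were called lower, 1 higher and 1 not called, where 27.3% of all genes tested were called lower and 29.2% higher. In IRE1 cells 111 were called lower and 1 higher, against 35.1% of all genes called lower and 32.2% higher. The gene not called was RPL41A in ΔLD cells, at -0.42 (adjusted p = 0.0853 by limma). The median change was -0.65 in ΔLD cells and -0.77 in IRE1 cells, with 0.00 and -0.02 over all genes tested. At the median, the Δopi3 level was 63.9% of the untreated level in ΔLD cells and 58.5% in IRE1 cells.

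Large-subunit genes changed by a median of -0.67 and small-subunit genes by -0.64 in ΔLD cells, and by -0.78 and -0.76 in IRE1 cells. Under E1A scaling the median change was -0.67 in ΔLD cells and -0.54 in IRE1 cells. There 111 of 112 genes lay below 0 in both strains. On that scale 63 in ΔLD cells and 36 in IRE1 cells were called lower, with no share of all genes to set beside them. In IRE1 cells that median is the larger fall beside the DTT median of -0.27 on the same scale. With quantile normalization the medians were -0.32 in ΔLD cells and -0.42 in IRE1 cells.

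The size of the fall differed between slides. The median change of the 112 genes was -0.71, -0.77 and -0.48 on slides 1, 2 and 3 in ΔLD cells and -1.06, -0.90 and -0.35 in IRE1 cells. In both strains it was smallest on slide 3, where the OPI3 probe was brightest on the Δopi3 arrays, and the part of that signal in the result was not tested. Without the arrays with OPI3 signal, the median was -0.72 in ΔLD cells with 106 genes called and -0.96 in IRE1 cells with 110 called. In that fit 1 Δopi3 array was left in each strain and was taken to vary like the other groups.

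RPL9A, which encodes a copy of the large-subunit protein Rpl9, had the largest fall in both strains over all 3 slides. It was at 3.65, 3.65 and 3.94 in ΔLD Δopi3 cells, against 4.73, 4.78 and 4.64 in untreated cells. In IRE1 cells it was at 3.33, 3.49 and 4.15 in Δopi3 cells, against 4.90, 4.84 and 4.73 in untreated cells. The third Δopi3 array of IRE1 cells was the highest of its group, yet the groups did not overlap. RPL9A changed by -0.97 in ΔLD cells (SE 0.16, adjusted p = 7.53e-05 by limma) and -1.17 in IRE1 cells (SE 0.16, adjusted p = 5.87e-06 by limma). In ΔLD cells RPL19B (-0.94) and RPS11B (-0.87) followed, and in IRE1 cells RPL31B (-1.08) and RPL16A (-1.03), all genes of large-subunit proteins except RPS11B. RPL9A changed by -1.07 in ΔLD cells and -1.50 in IRE1 cells once the arrays with OPI3 signal were left out, and in ΔLD cells RPL19B (-1.18) and RPS11B (-1.14) then lay below it.

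RPL15B was again the 1 gene called higher. It was at 0.03, -0.31 and -0.27 in ΔLD Δopi3 cells, against -0.39, -0.42 and -0.37 in untreated cells. In IRE1 cells it was at -0.04, -0.15 and -0.21 in Δopi3 cells, against -0.40, -0.38 and -0.41 in untreated cells. The groups did not overlap in either strain, and the first array of ΔLD Δopi3 cells was the highest of its group. The change was 0.21 in ΔLD cells (adjusted p = 0.0407 by limma) and 0.26 in IRE1 cells (adjusted p = 0.00934 by limma). In ΔLD cells the call was lost in 10 of 17 alternatives, among them leaving out Δopi3 replicate 1 (0.10), and under E1A scaling the rise was called in neither strain (0.19 in ΔLD cells and 0.49 in IRE1 cells). It was 0.42 in ΔLD cells and 0.36 in IRE1 cells without the arrays with OPI3 signal.

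The copies differed in their Δopi3 change in 17 of 56 pairs (30.4%) in ΔLD cells and 19 of 56 (33.9%) in IRE1 cells. None differed by more than 1. The median size was 0.11 in each strain. Leaving out the arrays with OPI3 signal gave 16 pairs in ΔLD cells and 19 in IRE1 cells. Under E1A scaling, which leaves the copy differences unchanged, 1 pair was called in ΔLD cells and 2 in IRE1 cells. With only the groups compared in the model 10 pairs differed in ΔLD cells and 7 in IRE1 cells. Without slide 2 the counts were 3 in ΔLD cells and 6 in IRE1 cells. In IRE1 cells they were 12 without slide 1 or without Δopi3 replicate 1. In ΔLD cells they were 8 without slide 1, 11 without slide 3, and 10 to 11 without any one of Δopi3 replicates 1 and 2 and untreated replicates 1 and 2. RPL15 led with -0.75 in ΔLD cells (95% interval -1.04 to -0.46) and -0.91 in IRE1 cells (-1.20 to -0.62), and RPS14 followed with -0.44 (-0.65 to -0.22) and -0.52 (-0.73 to -0.30) in the same order of strains. Without the arrays with OPI3 signal these were -0.88 and -1.14 for RPL15 and -0.49 and -0.53 for RPS14. The RPL15 difference with quantile normalization was -0.36 in ΔLD cells and -0.48 in IRE1 cells. That of RPS14 was then -0.21 in ΔLD cells, not called, and -0.27 in IRE1 cells, called.

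The pairs RPL7 and RPL8 did not show with Δopi3 what they showed with DTT. RPL7B changed by -0.67 in ΔLD cells and -0.79 in IRE1 cells, and RPL7A by -0.82 in ΔLD cells and -0.90 in IRE1 cells. The copy difference of RPL7 was -0.15 in ΔLD cells (95% interval -0.45 to 0.15) and -0.12 in IRE1 cells (-0.42 to 0.19), called in neither. For RPL8 it was 0.08 in ΔLD cells (-0.07 to 0.24), not called, and 0.19 in IRE1 cells (0.03 to 0.34, adjusted p = 0.0312 by limma), a call that was lost in 11 of 17 alternatives. The copy difference of RPL7 was -0.33 in ΔLD cells and -0.25 in IRE1 cells without the arrays with OPI3 signal, and that of RPL8 was 0.10 in ΔLD cells and 0.18 in IRE1 cells, none of them called. With quantile normalization that of RPL7 turned to 0.12 in ΔLD cells and 0.18 in IRE1 cells, neither called.

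DTT-treated cells were then set directly against Δopi3 cells of the same strain, a comparison added after the data were seen. In ΔLD cells 86 of 112 genes were lower with DTT and 0 higher, where 30.3% of all genes tested were lower and 31.9% higher. In IRE1 cells 82 were lower and 0 higher, against 25.2% of all genes lower and 33.6% higher. At an unadjusted p under 0.05 92 genes passed by limma in each strain. The median change was -0.39 in ΔLD cells and -0.40 in IRE1 cells. Under E1A scaling the median was -0.02 in ΔLD cells and turned to 0.26 in IRE1 cells, where the median over all genes was 0.39 and 0.71. There 0 genes were called higher and 3 lower in ΔLD cells, and 4 higher and 2 lower in IRE1 cells. Quantile normalization gave medians of -0.28 in ΔLD cells and -0.23 in IRE1 cells. Without the Δopi3 arrays with OPI3 signal, 65 genes in ΔLD cells and 37 in IRE1 cells were called, and the medians were -0.36 and -0.18. With only the groups compared in the model 44 genes were called in IRE1 cells. Without slide 2 there were 48 in ΔLD cells and 47 in IRE1 cells, without slide 3 there were 56 and 34, and without Δopi3 replicate 3 there were 50 in IRE1 cells.

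In the same direct comparison the copies differed in 16 of 56 pairs (28.6%) in ΔLD cells and in 23 of 56 (41.1%) in IRE1 cells. There were 14 in ΔLD cells and 19 in IRE1 cells without the arrays with OPI3 signal. With quantile normalization 26 differed in ΔLD cells. Under E1A scaling, with the copy differences unchanged, 6 were called in each strain. With only the groups compared in the model 7 differed in ΔLD cells and 8 in IRE1 cells. Without slide 1 there were 10 in each strain, without slide 2 there were 8 in ΔLD cells and 11 in IRE1 cells, and without DTT replicate 1 there were 10 in ΔLD cells. RPL7 differed by 1.68 in ΔLD cells (adjusted p = 1.31e-08 by limma) and 1.72 in IRE1 cells (adjusted p = 8.96e-09 by limma), RPL7B being lower with DTT. RPL8 differed by -1.30 in ΔLD cells (adjusted p = 5.43e-11 by limma) and -1.38 in IRE1 cells (adjusted p = 1.95e-11 by limma), RPL8A being lower with DTT. RPL15 differed by -0.71 in ΔLD cells and -0.73 in IRE1 cells. RPL22 differed by 0.54 in ΔLD cells and 0.74 in IRE1 cells, and RPL9 by 0.49 in ΔLD cells and 0.60 in IRE1 cells.

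The copy differences of RPL22 and RPL9 had opposite signs with DTT and with Δopi3, and both signs were called in IRE1 cells only. In RPL22, whose protein is known to repress splicing of RPL22B, copy B fell further with DTT, at -1.59 in ΔLD cells and -1.63 in IRE1 cells, against -1.21 and -1.24 for copy A. In Δopi3 cells copy A was the further one in IRE1 cells, with a copy difference of -0.35 (adjusted p = 0.0109 by limma), while that in ΔLD cells was -0.16 and not called. That IRE1 call was lost in 3 of 17 alternatives. With quantile normalization the RPL22 difference with Δopi3 was 0.17 in ΔLD cells and 0.03 in IRE1 cells, neither called, with the sign it had with DTT. In RPL9 copy A fell further in Δopi3 cells, by a difference of -0.34 in ΔLD cells and -0.40 in IRE1 cells. With DTT the RPL9 difference was 0.14 in ΔLD cells, not called, and 0.19 in IRE1 cells (adjusted p = 0.0362 by limma). With quantile normalization it was 0.26 in ΔLD cells and 0.36 in IRE1 cells with DTT. With Δopi3 it was then -0.38 in each strain. All of these quantile values were called, so the limit to IRE1 cells depended on the scaling for RPL9.

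**Figure D5:**
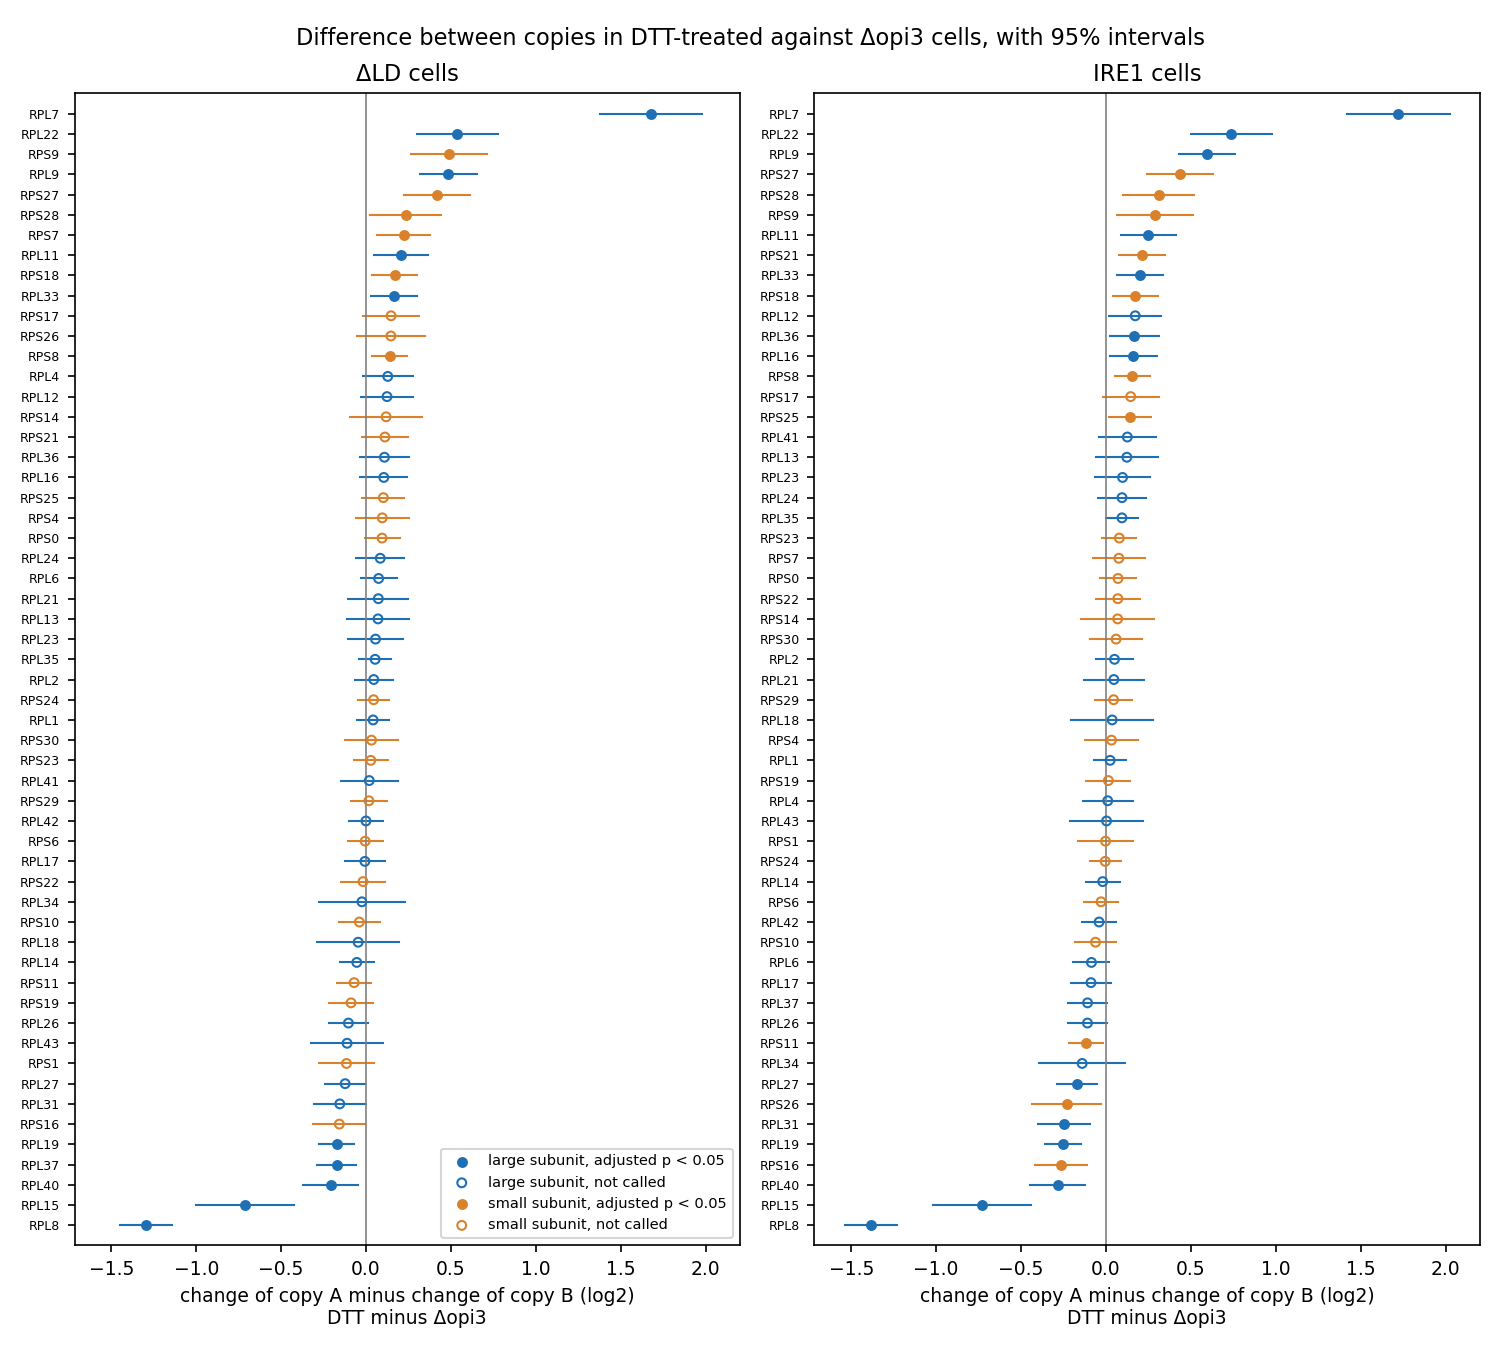
Change of copy A minus change of copy B (horizontal axis, log2) when DTT-treated cells were set against Δopi3 cells, for the 56 pairs in order of value (rows), in ΔLD cells on the left and IRE1 cells on the right; bars are 95% intervals and filled points were called at an adjusted p under 0.05. RPL7 lies furthest to the right, at 1.68 and 1.72, and RPL8 furthest to the left, at -1.30 and -1.38.

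Choline brought the genes of Δopi3 cells up again. In ΔLD cells 109 of 112 were called higher, 0 lower and 3 not called, where 27.8% of all genes tested were called higher and 32.1% lower. In IRE1 cells 109 were called higher, 1 lower and 2 not called, against 34% of all genes called higher and 36.3% lower. The median change was 0.61 in ΔLD cells and 0.71 in IRE1 cells, so that the level with choline was 153% of that without at the median in ΔLD cells and 164% in IRE1 cells. The same medians were 0.61 and 0.70 over the large-subunit genes and 0.64 and 0.71 over the small-subunit genes. With quantile normalization the medians were 0.35 in ΔLD cells and 0.41 in IRE1 cells, and under E1A scaling 0.78 and 0.93. Choline and Δopi3 effects share the Δopi3 arrays, so their opposite signs are not independent.

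The rise was seen in array medians too. With choline they were 3.68, 3.85 and 3.87 in ΔLD Δopi3 cells, against 3.08, 3.13 and 3.30 without choline. In IRE1 cells they were 3.75, 3.84 and 3.86 with choline, against 2.89, 3.01 and 3.47 without. Without the arrays with OPI3 signal the median change was 0.69 in ΔLD cells, where 15 of the genes were not called, and 0.91 in IRE1 cells, where 5 were not called.

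The largest rises in both strains were of RPL19B (0.95 in ΔLD cells and 1.19 in IRE1 cells), RPS18A (0.92 and 1.07 in the same order) and RPL7A (0.90 and 1.03). RPL19B levels were 3.34, 3.64 and 3.50 with choline in ΔLD Δopi3 cells, against 2.31, 2.58 and 2.74 without. In IRE1 cells they were 3.50, 3.71 and 3.58 with choline, against 2.03, 2.41 and 2.79 without. No array with choline overlapped the arrays without it. RPL19B changed by 1.18 in ΔLD cells and 1.58 in IRE1 cells without the arrays with OPI3 signal.

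RPL15B and both RPL41 genes were the exceptions. RPL15B was called lower with choline in IRE1 cells (-0.29, adjusted p = 0.00426 by limma) and stood at -0.17 in ΔLD cells (adjusted p = 0.0825 by limma). RPL41A and RPL41B, which encode the very small protein Rpl41 at the junction of the subunits, stood at 0.17 and 0.13 in ΔLD cells and 0.18 and 0.09 in IRE1 cells, none called. RPL41A was at 2.97, 2.89 and 3.15 with choline in ΔLD cells, against 3.05, 2.59 and 2.86 without. In IRE1 cells it was at 3.12, 2.94 and 3.12 with choline, against 3.10, 2.53 and 3.00 without, and the groups overlapped in both strains.

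The copies differed in their choline change in 17 of 56 pairs (30.4%) in ΔLD cells and 27 of 56 (48.2%) in IRE1 cells. With the slide, which is the replicate number, as a block, 27 pairs in ΔLD cells were called. With only the groups compared in the model 10 pairs differed in ΔLD cells and 12 in IRE1 cells. Under E1A scaling, with the copy differences unchanged, 1 and 2 were called. Leaving out the arrays with OPI3 signal gave 20 in ΔLD cells and 23 in IRE1 cells. Without slide 2 the counts were 6 in ΔLD cells and 11 in IRE1 cells, and without slide 1 it was 8 in ΔLD cells. RPL15 led with 0.68 in ΔLD cells and 0.80 in IRE1 cells, and with quantile normalization stood at 0.34 and 0.43. The copies of RPS26, which encode a protein at the exit of the mRNA channel, differed by -0.43 in ΔLD cells and -0.48 in IRE1 cells, copy B having risen further. RPS14 differed by 0.50 in ΔLD cells and 0.41 in IRE1 cells, RPL9 by 0.36 in ΔLD cells and 0.44 in IRE1 cells, and RPL7 by 0.44 in ΔLD cells and 0.45 in IRE1 cells. The RPL7 call was lost in 6 of 17 alternatives in ΔLD cells and 3 of 17 in IRE1 cells, among them quantile normalization (0.18 and 0.16). It was 0.62 in ΔLD cells and 0.64 in IRE1 cells without the arrays with OPI3 signal.

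Choline-treated Δopi3 cells were also set against untreated cells, another comparison added after the data were seen. No member was called in either strain by limma, where 0.515% of all genes in ΔLD cells and 2.22% in IRE1 cells were called in either direction. At an unadjusted p under 0.05 there were 1 in ΔLD cells and 7 in IRE1 cells. The medians were -0.05 in ΔLD cells and -0.07 in IRE1 cells. The copies of 1 pair (1.79%) differed, RPS22 in IRE1 cells, by -0.29 (adjusted p = 0.0145 by limma), and in ΔLD cells there was none, with 3 at an unadjusted p under 0.05. RPS22A changed by -0.25 and RPS22B, which holds the small nucleolar RNA gene SNR44 in the gene table, by 0.04. With the slide as a block RPS7 was called too, at -0.24 (adjusted p = 0.0400 by limma). The RPS22 call was lost with quantile normalization, under E1A scaling, with only the groups compared in the model, without slide 2, without slide 3, without choline replicate 1 or 2, or without untreated replicate 3.

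ΔLD cells were compared with IRE1 cells in each condition. None of the 112 genes was called by limma in DTT-treated, Δopi3, choline-treated Δopi3 or untreated cells, where 20.7%, 16.1%, 3.14% and 0.789% of all genes were called. At an unadjusted p under 0.05 there were 1, 0, 1 and 0 genes in the same order. The medians of ΔLD minus IRE1 were 0.03, 0.05, -0.05 and -0.06. The Δopi3 comparison rested on 1 array: without IRE1 Δopi3 replicate 3, the array with the most OPI3 signal, 30 of 112 genes were called, and without all 5 arrays with OPI3 signal or without slide 3 there were 2. Without those 5 arrays the median of ΔLD minus IRE1 in Δopi3 cells was 0.19. In DTT-treated cells 1 gene was called without slide 1 or without ΔLD DTT replicate 1, and 1 with quantile normalization. With the slide as a block RPL15B was called between the strains with DTT (-0.20, adjusted p = 0.0338 by limma) and RPL22B with choline (-0.24, adjusted p = 0.0247 by limma). With only the groups compared in the model RPS26B was called with DTT (-0.27, adjusted p = 0.0352 by limma).

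The effects of DTT, of Δopi3 and of choline in ΔLD cells minus those in IRE1 cells were tested as interaction terms. None of the 112 genes was called in any of the 3 by limma, and none at an unadjusted p under 0.05, where 8.31%, 4.11% and 6.99% of all genes were called. The medians of these differences were 0.11, 0.11 and -0.09, with 0.04, 0.03 and -0.01 over all genes. On slides 1, 2 and 3 the median difference was 0.19, 0.10 and 0.02 for DTT. It was 0.32, 0.15 and -0.14 for Δopi3 and -0.32, -0.12 and 0.17 for choline, changing sign on slide 3. The median SE of these differences over the 112 genes was 0.17. Without IRE1 Δopi3 replicate 3, 5 genes were called for Δopi3 and 4 for choline. The medians were 0.27 for Δopi3 and -0.21 for choline without the arrays with OPI3 signal.

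No pair of copies differed in these interactions or between the strains in any condition by limma. At an unadjusted p under 0.05 there were 1, 1 and 0 pairs in the interactions, and 2, 2, 0 and 1 between strains in DTT-treated, Δopi3, choline-treated Δopi3 and untreated cells. Without IRE1 Δopi3 replicate 3, 4 pairs differed between strains in Δopi3 cells, and without ΔLD Δopi3 replicate 1 there was 1. In DTT-treated cells 1 pair differed without slide 1 or without slide 3, and quantile normalization called 1 pair there and 1 in Δopi3 cells. RPS26 differed between the strains with DTT with the slide as a block (0.27, adjusted p = 0.0356 by limma) and with only the groups compared in the model (adjusted p = 0.0191 by limma). With only the groups compared it also differed in the DTT interaction (0.32, adjusted p = 0.0150 by limma). For the DTT effects, which share no array between the strains, 10 pairs were called with the same direction in both, 76.9% of the 13 in ΔLD cells and 58.8% of the 17 in IRE1 cells. For Δopi3 there were 13 such pairs (76.5% of 17 in ΔLD cells and 68.4% of 19 in IRE1 cells). Across the 56 pairs, the copy differences with DTT in the 2 strains correlated with r = 0.98, and with r = 0.85 over the 53 pairs other than RPL7, RPL8 and RPL15. These points share probes and slides.

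Ribosomal protein genes outside the pairs moved alongside. All 18 single-copy genes on the list were called lower with DTT and with Δopi3 in both strains, against the 28.3% and 30.1% of all genes called lower with DTT in ΔLD and IRE1 cells and the 27.3% and 35.1% called lower with Δopi3. Their median changes were -1.05 in ΔLD cells and -1.16 in IRE1 cells with DTT. With Δopi3 they were -0.51 in ΔLD cells and -0.69 in IRE1 cells. With choline 15 of the 18 were called higher in each strain, where 27.8% of all genes in ΔLD cells and 34% in IRE1 cells were called higher. All 5 genes of the ribosomal stalk (RPP0, RPP1A, RPP1B, RPP2A and RPP2B) were called lower in these stress comparisons and higher with choline.

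These counts too moved with the scaling, in alternatives added for the lists after the data were seen. Under E1A scaling 14 of the 18 single-copy genes were called lower with DTT in ΔLD cells and 1 in IRE1 cells, and with Δopi3 3 in ΔLD cells and 1 in IRE1 cells, while all 18 lay below 0 in each. With choline 9 were then called higher in ΔLD cells and 15 in IRE1 cells. Of the 5 stalk genes, 5 were called lower with DTT in ΔLD cells and 0 in IRE1 cells, and with Δopi3 2 in ΔLD cells and 0 in IRE1 cells. With quantile normalization 12 single-copy genes in ΔLD cells and 15 in IRE1 cells were called lower with Δopi3.

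The 10 listed regulators of ribosomal protein transcription did not move as a block. With DTT 3 were called higher and 5 lower in ΔLD cells, and 3 higher and 6 lower in IRE1 cells. Of all genes, 38.1% and 39.4% were called higher there in ΔLD and IRE1 cells, and 28.3% and 30.1% lower. With Δopi3 2 were called higher and 2 lower in ΔLD cells, and 1 higher and 5 lower in IRE1 cells. The shares of all genes were 29.2% and 32.2% higher, and 27.3% and 35.1% lower. With choline 5 were called higher and 2 lower in ΔLD cells, and 6 higher and 1 lower in IRE1 cells. The shares of all genes were 27.8% and 34% higher, and 32.1% and 36.3% lower. Under E1A scaling 3 were called higher and 1 lower with DTT in ΔLD cells, and 7 higher and 0 lower in IRE1 cells. The shares of all genes above are not on that scale.

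STB3, a repressor that binds the promoters of ribosome biogenesis and ribosomal protein genes, was higher in all these stress comparisons. It changed by 0.28 in ΔLD cells and 0.75 in IRE1 cells with DTT, by 0.74 in ΔLD cells and 1.11 in IRE1 cells with Δopi3, and by -0.87 in ΔLD cells and -1.28 in IRE1 cells with choline. With quantile normalization its DTT change in ΔLD cells was 0.19 and not called. CRF1, a corepressor of ribosomal protein genes, was called higher with DTT, by 1.34 in ΔLD cells and 0.74 in IRE1 cells, and was above background on 2 of 3 untreated ΔLD arrays. FHL1, the forkhead-like factor at these promoters, was lower with DTT (-0.27 in ΔLD cells and -0.37 in IRE1 cells) and with Δopi3 (-0.28 in ΔLD cells and -0.50 in IRE1 cells), and higher with choline (0.28 in ΔLD cells and 0.47 in IRE1 cells). Under E1A scaling FHL1 turned to 0.09 in ΔLD cells, not called, and 0.52 in IRE1 cells, called higher, with DTT. It was then called lower in neither strain with Δopi3. SFP1, another factor at these promoters, rose with DTT. Its levels were -1.19, -1.17 and -1.23 in ΔLD cells, against -1.56, -1.55 and -1.53 untreated. In IRE1 cells they were -1.32, -1.37 and -1.40, against -1.57, -1.53 and -1.58 untreated. With quantile normalization the SFP1 change was 0.26, called, in ΔLD cells and 0.08, not called, in IRE1 cells. Under E1A scaling it was called in both (0.71 and 1.08).

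In the direct comparison of DTT with Δopi3, HMO1 differed by 0.57 in ΔLD cells (adjusted p = 7.63e-05 by limma) and 0.64 in IRE1 cells (adjusted p = 2.07e-05 by limma), and it stayed called under E1A scaling. TOD6 differed by -0.79 in ΔLD cells (adjusted p = 8.98e-05 by limma) and -0.82 in IRE1 cells (adjusted p = 6.91e-05 by limma). IFH1 differed by -0.59 in ΔLD cells (adjusted p = 1.42e-05 by limma) and -0.33 in IRE1 cells (adjusted p = 0.00373 by limma). Under E1A scaling neither TOD6 nor IFH1 was called in this comparison, and IFH1 turned to 0.33 in IRE1 cells.

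HMO1, a high mobility group protein at these promoters, fell in Δopi3 cells, with a change of -0.69 in ΔLD cells and -0.67 in IRE1 cells, and stood at -0.12 in ΔLD cells and -0.02 in IRE1 cells with DTT, neither called. TOD6, a repressor of ribosome biogenesis genes, changed by -1.08 in ΔLD cells and -1.16 in IRE1 cells with DTT. With Δopi3 it changed by -0.29 in ΔLD cells, not called, and -0.34 in IRE1 cells. IFH1, the coactivator that binds Fhl1, changed by -0.51 in ΔLD cells and -0.42 in IRE1 cells with DTT, and stood at 0.08 and -0.09 with Δopi3, neither called. Under E1A scaling HMO1 was called higher with DTT in IRE1 cells (0.86) and not in ΔLD cells (0.23). Its Δopi3 fall was then called in ΔLD cells (-0.71) and not in IRE1 cells (-0.44). TOD6 was then called lower with DTT in ΔLD cells (-0.72) and not in IRE1 cells (-0.27), and in neither strain with Δopi3. IFH1 with DTT stood at -0.16 in ΔLD cells and turned to 0.47 in IRE1 cells, neither called.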

How the data were processed

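Spot intensity was deposited array by array. Per the file headers, Feature Extraction 10.7.1.1 had subtracted background from the processed signal and no step between arrays is recorded. From the log2 of this signal the array's own 75th percentile over all probes was subtracted here. Spots of a probe were averaged, without outlier spots, and the probes of a gene were averaged. A gene was kept if, in at least 1 group, every array had over 50% of the spots of one of its probes marked as well above background, which left 6209 of 6576 genes. A selection of log2 ratios deposited by the authors lists none of the 112 genes and was not used.

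Group means of all 8 groups were estimated together with limma 3.58.1 in R 4.3.3 (24 arrays, 16 residual degrees of freedom), and the data.table package, version 1.17.8, read the files. The difference between copies A and B of each pair was computed on every array and fitted as 56 further rows beside the 6209 genes, with p-values adjusted over all of these. Tests are two-sided. The replicate number is the slide. Same-numbered arrays deviated together (correlation over 0.1 in all 3 numbers) in 8 of 10 comparisons, and not in the 2 of Δopi3 with untreated cells (correlations down to -0.28), so the numbers pair the arrays in those 8, and the fit with the slide as a block is given where it changes a count. With 3 arrays a group the smallest exact permutation p is 0.1, so single values outside the model carry none. The number of arrays limits the precision. The scripts were checked on simulated data.

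Named were, per effect, up to 3 called rises and falls of largest size among genes whose groups did not overlap, the 4 called pairs with the largest copy differences of the same kind, RPL7 and RPL8 throughout, the 3 pairs with the closest copies with DTT, while called genes of the lists of single-copy, stalk and regulator genes could be named. Other genes and pairs named in the report were chosen after their values were seen. The members and lists were chosen with earlier results of these data known. Alternatives were normexp background correction (median signals, since mean signals were not in the files used, offset 50), quantile normalization, scaling to the 7 E1A control probes, no filter on dim probes, saturated spots left out, the slide as a block, a fit to only the groups compared, the Δopi3 arrays with OPI3 signal left out, and each array or slide left out.

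No coordinates are given, since the array design and the gene table are of different builds.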

Additional observations from a re-analysis of the deposited data

Results flagged for a closer look

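In 1 gene beside the pairs the effects differed between the strains. CRF1, which encodes a corepressor of ribosomal protein genes, was called higher with Δopi3 in ΔLD cells (0.63) and stood at -0.32, not called, in IRE1 cells, and the interaction term was 0.94 (adjusted p = 0.0479 by limma). With choline it was called lower in ΔLD cells (-0.90) and stood at 0.33, not called, in IRE1 cells, and the interaction term was -1.22 (adjusted p = 0.00669 by limma). Its levels were low, between -7.67 and -5.55 over all arrays, and it was above background on 1 of 3 choline-treated and 2 of 3 untreated arrays of ΔLD cells. Of all genes tested, 4.11% were called in the Δopi3 interaction and 6.99% in the choline interaction. With quantile normalization the CRF1 calls lay in IRE1 cells instead, at -0.65 with Δopi3 and 0.93 with choline. The changes in ΔLD cells were then 0.18 and -0.31, neither called. Under E1A scaling the Δopi3 change was called in neither strain (0.61 in ΔLD cells and -0.09 in IRE1 cells). The choline change was then called in ΔLD cells (-0.73) and not in IRE1 cells (0.55). Which strain carried the calls thus depended on the scaling.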

How the results depend on the processing

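The falls with DTT and Δopi3 and the rise with choline kept their direction at the median of the 112 genes. This held under normexp, quantile normalization, E1A scaling and every left-out array. Leaving out the dim filter or saturated spots, or taking the slide as a block, could not move these medians. All 112 genes passed the filter, none of their spots was saturated, and every slide held 1 array of each group. Of 602 recomputed counts 80 moved by over 1.5 times, and of 1187 recomputed single tests 64 lost the call and 8 changed sign. With quantile normalization the copy difference was -0.081 for RPS9 with DTT in ΔLD cells, 0.032 for RPL22 with Δopi3 in IRE1 cells, 0.12 and 0.18 for RPL7 with Δopi3 in ΔLD and IRE1 cells, and 0.042 for RPL8 with choline in IRE1 cells. With arrays left out, RPL8 with choline ran from -0.0014 to 0.080 in ΔLD cells and from -0.073 to 0.0075 in IRE1 cells. Quantile normalization called 23 pairs with DTT in ΔLD cells and 26 for DTT against Δopi3 in ΔLD cells. It called 1 gene and 1 pair between strains with DTT, 1 pair between strains in Δopi3 cells, and 0 pairs for choline against untreated in IRE1 cells. E1A scaling left 9 genes called with DTT in IRE1 cells, 63 and 36 with Δopi3 in ΔLD and IRE1 cells, and 3 and 6, in either direction, for DTT against Δopi3. It left 3 and 5 pairs with DTT, 1 and 2 with Δopi3, 1 and 2 with choline, 6 and 6 for DTT against Δopi3, and 0 for choline against untreated in IRE1 cells. Copy differences and their spread between arrays do not move with E1A scaling, since the array's scale cancels. Those pair counts can move only through the variance that limma shares over all rows and the adjustment over all rows. With the replicate block, which is the slide, 27 pairs were called with choline in ΔLD cells, 1 gene and 1 pair between strains with DTT, 1 gene between strains with choline, and 2 pairs for choline against untreated in IRE1 cells; no other count of calls moved by over 1.5 times. Fitting only the groups compared called 10 and 7 pairs with Δopi3 in ΔLD and IRE1 cells, 10 and 12 with choline, and 7 and 8 for DTT against Δopi3, where 44 genes were called in IRE1 cells. It called 1 gene and 1 pair between strains with DTT, 1 pair in the DTT interaction, and 0 pairs for choline against untreated in IRE1 cells. Without the arrays with OPI3 signal, 2 genes were called between strains in Δopi3 cells and 37 for DTT against Δopi3 in IRE1 cells. Leaving out arrays or slides gave 7 to 11 and 8 to 16 pairs with DTT in ΔLD and IRE1 cells, 3 to 17 and 6 to 23 with Δopi3, and 6 to 23 and 11 to 28 with choline. For DTT against Δopi3 it gave 48 to 99 genes and 8 to 14 pairs in ΔLD cells, and 34 to 104 genes and 10 to 21 pairs in IRE1 cells. Between strains it gave 0 to 1 gene and 0 to 1 pair with DTT, and 0 to 30 genes and 0 to 4 pairs in Δopi3 cells. It gave 0 to 5 genes in the Δopi3 interaction, 0 to 4 in the choline interaction, and 0 to 1 pair for choline against untreated in IRE1 cells. Apart from the pair counts under E1A scaling, the cause of these changes was not tested. All 112 genes were above background on every array, so dimness limits none of them.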
